A study of Mus musculus with 4 samples.

Results

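The 9 genes described here are used as markers of the neural crest and of cells resembling Schwann cells or their precursors: Ngfr, Gfra1, Bcan, Scn7a, Fabp7, Mbp, Nes, Sox2 and Foxd3. They were taken as a fixed list of names. Every probe set that the platform annotation gives to 1 of them and to no other gene was read, 25 of 45101 in all. As genes they are 9 of the 18193 genes that the arrays name. RNA came from cultures of melan-a, an established line of mouse melanocytes, on 4 Affymetrix expression arrays with 1 array per condition. Hmhi-MYC-TA cells, Hmhi-Miz1 kd cells (their construct is written pS-Miz1) and Hmhi cells were each given 100 ng/ml EGF for 14 days, and a further culture of Hmhi cells was starved for 14 days without EGF being named. All 4 cultures were melan-a Hmhi derivatives, grown beforehand in medium with 10% serum, 200 nM TPA and 12 nM cholera toxin and starved in medium with 10% dialyzed serum, to which EGF was added where given. The labels spell out neither Hmhi nor MYC-TA, and do not say whether a line is 1 clone.

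Melanocytes and Schwann cells both descend from the neural crest, a migratory population at the edge of the neural tube, and some melanocytes arise from Schwann cell precursors along nerves. Ngfr, Foxd3 and Sox2 are used to recognise crest cells and Schwann cell precursors, Nes marks progenitors, and Fabp7, Scn7a and Mbp belong to glia. In pigment cells and melanoma such genes are read as signs of a less pigmented, crest-like state.

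With 1 array per condition no difference was tested and no p-value is given: each difference compares 2 arrays, not the conditions. Values are log2 signals, on which 1 unit is 2-fold. For each gene the probe set that was brightest on average stands for it. The error given is the SD of a gene's different probe sets in 1 comparison, which is technical and holds no spread between cultures. Over all genes with several sets this SD was 0.32 for Hmhi EGF minus Hmhi starved, 0.22 for the Miz1 kd label minus Hmhi EGF, 0.25 for MYC-TA minus Hmhi EGF and 0.41 for MYC-TA minus the Miz1 kd label. A gene was counted in a comparison if its brighter array was at or above the median of that array, 6.66. Zbtb17, which encodes Miz-1, read 9.08 in the array labelled Miz1 kd against 8.72 in Hmhi EGF, so the transcript does not bear out that label and its directions are those of the array as labelled. Myc read 9.78 in MYC-TA against 10.60 in Hmhi EGF.

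Of 12 melanocyte markers, 8 were above the median on all 4 arrays, among them Mitf, Dct, Tyrp1 and Mlana. Tyr, the tyrosinase gene that defines pigment production, was below it on all 4, at 4.99, 5.08, 5.63 and 4.62 in MYC-TA, the Miz1 kd label, Hmhi EGF and Hmhi starved. Of 10 measured Schwann cell markers 7 were above the median on all 4 arrays, Sox10, Erbb3, Cdh19, Mag and Pmp22 among them, while Gfap and Gap43 were below it throughout. Sox10 and other genes of that list are shared by melanocytes, so the list does not separate these cell types. Fibroblast markers had 3 of 8, keratinocyte markers 2 of 6, neuron markers 3 of 6 and macrophage markers 1 of 4 above the median on all arrays. The summed linear signal of the macrophage list, as log2, was 8.93 in MYC-TA, 8.85 in the Miz1 kd label, 8.80 in Hmhi EGF and 9.71 in Hmhi starved. Csf1r was highest in Hmhi starved, at 6.72, 6.87, 6.74 and 9.41 in that order. Cd68 of the same list went the other way, at 8.28, 8.05, 8.07 and 6.55. Ptprc, the leukocyte antigen CD45, read at most 4.58. The fibroblast sum was 12.12, 11.81, 11.61 and 12.24, the neuron sum 10.87, 10.78, 10.62 and 11.49, and the keratinocyte sum 9.24, 9.07, 9.11 and 9.13. The melanocyte sum was 14.48, 14.98, 14.76 and 15.21, and the Schwann cell sum 14.50, 14.94, 14.87 and 14.87. The macrophage, neuron, fibroblast and melanocyte sums were thus highest in Hmhi starved, as were Scn7a, Sox2 and Mbp below. A linear sum is carried by a list's brightest genes. By list median, Hmhi starved was lowest for macrophage and neuron markers, at 6.07 and 6.86. It was below Hmhi EGF for melanocyte markers, at 8.40 against 9.52, and for fibroblast markers, at 6.78 against 6.81. The Schwann cell and keratinocyte sums were not highest in Hmhi starved, but their list medians were. The Schwann cell median read 11.32 there and at most 10.63 on the other arrays, the keratinocyte median 6.02 and at most 5.91. The part of these cell types in the results was not tested. In bulk RNA, fewer cells of a type and less RNA per cell cannot be told apart.

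The promoters of 5 members are shown because Bcan, Gfra1 and Fabp7 were each at least 2-fold higher with EGF and at least 2-fold lower in the Miz1 kd label than in Hmhi EGF, Scn7a was lower with EGF, and Foxd3 holds the E-box that MYC and MAX bind. Each is the 250 bases before the start of a transcript, 5′ to 3′ on the gene's strand, from RefSeq on GRCm38.p6. Capitals mark a match to any of the motifs searched on both strands.
Bcan, chr3:88000357-88000606, minus strand: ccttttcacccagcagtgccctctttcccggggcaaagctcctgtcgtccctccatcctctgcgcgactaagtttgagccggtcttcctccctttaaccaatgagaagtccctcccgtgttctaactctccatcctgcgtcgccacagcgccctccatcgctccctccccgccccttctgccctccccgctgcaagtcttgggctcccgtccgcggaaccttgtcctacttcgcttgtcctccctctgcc
Gfra1, chr19:58455399-58455648, minus strand: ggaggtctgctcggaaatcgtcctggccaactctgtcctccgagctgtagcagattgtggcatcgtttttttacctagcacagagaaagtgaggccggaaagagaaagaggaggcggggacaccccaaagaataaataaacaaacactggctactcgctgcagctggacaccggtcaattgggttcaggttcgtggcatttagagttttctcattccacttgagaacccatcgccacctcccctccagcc
Fabp7, chr10:57784673-57784922, plus strand: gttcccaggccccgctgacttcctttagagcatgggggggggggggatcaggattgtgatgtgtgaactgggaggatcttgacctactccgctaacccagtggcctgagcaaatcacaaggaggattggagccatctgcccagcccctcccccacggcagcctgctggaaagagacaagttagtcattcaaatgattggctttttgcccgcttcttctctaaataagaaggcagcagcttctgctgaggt
Scn7a, chr2:66784911-66785160, minus strand: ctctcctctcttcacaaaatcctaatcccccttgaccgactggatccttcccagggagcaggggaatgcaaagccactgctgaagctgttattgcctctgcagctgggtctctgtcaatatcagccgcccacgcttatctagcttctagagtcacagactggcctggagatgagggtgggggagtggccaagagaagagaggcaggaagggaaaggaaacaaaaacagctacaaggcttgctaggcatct
Foxd3, chr4:99656049-99656298, plus strand: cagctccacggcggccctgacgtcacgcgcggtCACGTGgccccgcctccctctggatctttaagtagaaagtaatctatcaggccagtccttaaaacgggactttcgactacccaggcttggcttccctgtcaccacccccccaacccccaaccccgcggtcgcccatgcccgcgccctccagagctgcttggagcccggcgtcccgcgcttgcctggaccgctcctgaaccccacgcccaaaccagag
CACGTG, the E-box of MYC and MAX, occurs in 6.02% of the 32851 promoter windows of the same length. The variant CATGTG, which MITF also binds, occurs in 12.3% of them. A core recognised by SOX factors, ACAAAG, occurs in 16.5%, and the TATA box TATAAA in 12.4%. No match overlapped another in the members' windows. Promoter windows were searched for 8 of the 9 members, and Mbp was left out of the search. Foxd3 had CACGTG, its first base 217 bases before the start, and Sox2 had ACAAAG, its first base 206 bases before it. In the other 6 windows these letters were not found. The windows also differed in base composition: Sox2 had 72.0% G and C with 27 CpG dinucleotides and Foxd3 65.6% with 21, whereas Scn7a had 53.2% with 3 and Fabp7 54.8% with 4. The median over all windows was 52.4% and 6.

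With EGF, 4 of the 8 members past the level filter were at least 2-fold above Hmhi starved and 2 were as far below it. Bcan, Fabp7, Nes and Gfra1 were the higher genes and Scn7a and Sox2 the lower ones. Over all 11461 genes counted, 7.98% were 2-fold or more higher and 4.96% lower by as much. Of 11 genes of the melanocyte list past the filter, 5 were at least 2-fold higher and 1 lower, with a list median of 0.92. The median difference of the 8 was 0.43, against 0.006 over all genes, but it stands between members far apart in opposite directions. Ngfr did not pass the filter in any comparison. By probe set, 6 of the 21 member sets past the filter passed 2-fold upwards and 11 downwards, against 12.2% of all sets in either direction. Of the 11, 7 belong to Mbp and 3 to Scn7a. Sets of 1 gene are not independent, so nothing is read from this share.

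**Figure D1:**
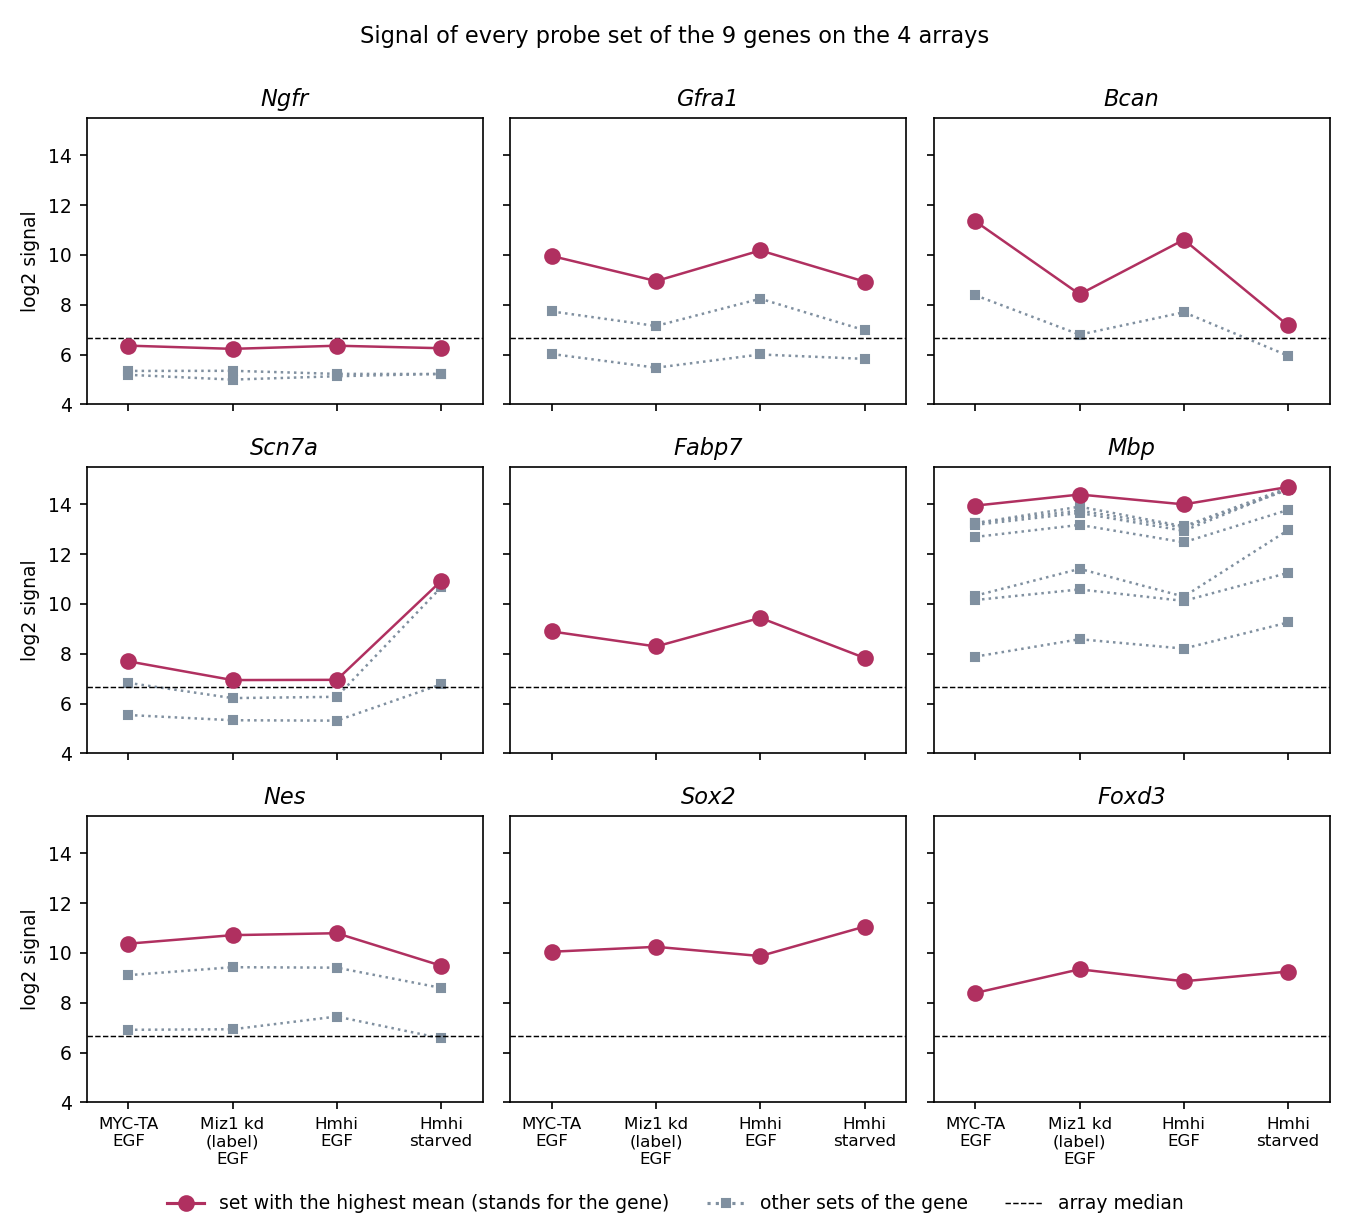
Log2 signal (vertical axis) of all 25 probe sets of the 9 genes on the MYC-TA EGF, Miz1 kd label EGF, Hmhi EGF and Hmhi starved arrays; the red line is the set that stands for the gene, grey lines are its other sets and only join 1 set's points, and the dashed line is the array median of 6.66. Scn7a is high only in Hmhi starved, at 10.92, Bcan ranges from 7.17 to 11.35, and Ngfr lies below the median on every array.

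Among the receptors, Ngfr encodes the p75 neurotrophin receptor, which binds all neurotrophins. Its brightest set read 6.36 in MYC-TA, 6.23 in the Miz1 kd label, 6.36 in Hmhi EGF and 6.26 in Hmhi starved. The range over the 4 arrays was 0.13, below the technical SD of every comparison, and the other 2 sets lay between 4.99 and 5.35. All 12 readings were below the array median, and no direction is read from them. Partners of the p75 receptor were measured well: Bex3 (known as a p75-associated protein) read 12.40, 12.53, 12.21 and 12.07 in MYC-TA, the Miz1 kd label, Hmhi EGF and Hmhi starved. Of the 12 genes of the list of neurotrophin ligands, receptors and partners that were past the filter with EGF, 2 passed 2-fold upwards and 2 downwards. Sorcs2, a sortilin-family co-receptor, read 11.81 in Hmhi EGF against 7.15 in Hmhi starved, and Sort1 read 12.13 against 11.09. Bdnf, a neurotrophin, read 7.25 in Hmhi EGF against 10.10 in Hmhi starved, and Sorcs1 read 5.90 against 7.91. Thus a ligand and a co-receptor of the list were lower while 2 other sortilin-family members were higher.

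Gfra1 encodes the lipid-anchored receptor that binds GDNF and presents it to the RET kinase. Its brightest set read 9.96 in MYC-TA, 8.95 in the Miz1 kd label, 10.18 in Hmhi EGF and 8.93 in Hmhi starved. MYC-TA and Hmhi EGF were therefore high, and the Miz1 kd label and Hmhi starved were low and 0.02 apart. The second set gave the same pattern at 7.73, 7.15, 8.24 and 6.98. The third set was below the median on all arrays, at 6.02, 5.47, 6.0 and 5.83. Hmhi EGF exceeded Hmhi starved by 1.25 and 1.27 in the 2 sets past the filter, and the Miz1 kd label was below Hmhi EGF, with differences of -1.23 and -1.10. MYC-TA exceeded the Miz1 kd label by 1.01 and 0.58, so the 2-fold call in that comparison rests on the brighter set.

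Of 9 measured genes of the GDNF-family list, 4 were past the filter with EGF. Nrtn, the neurturin gene, was among them, at 10.84 in Hmhi EGF and 10.79 in Hmhi starved. Ret, the signalling partner, read 6.37 in MYC-TA, 6.36 in the Miz1 kd label, 6.31 in Hmhi EGF and 6.22 in Hmhi starved, below the median throughout. Gdnf was below it as well, between 4.52 and 5.26. Gfra2, the receptor that prefers neurturin, read 8.59 in MYC-TA, 9.36 in the Miz1 kd label, 9.04 in Hmhi EGF and 7.19 in Hmhi starved. Of the 4 GDNF-family list genes past the filter with EGF, Gfra2 was the 1 that was at least 2-fold higher, and none was 2-fold lower. This call rests on an _x_ set: 0 list genes were 2-fold higher with a gene's sets averaged or with only plain sets. By that set Gfra2 was 0.31 from Hmhi EGF in the Miz1 kd label, where Gfra1 was lower.

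Bcan encodes brevican, a chondroitin sulfate proteoglycan of the lectican family that binds hyaluronan in nervous tissue. The brighter set, whose _x_ name marks probes that may also bind other transcripts, read 11.35 in MYC-TA, 8.42 in the Miz1 kd label, 10.61 in Hmhi EGF and 7.17 in Hmhi starved. The plain set, without that mark, read 8.38, 6.80, 7.70 and 5.95 in the same order. Both sets placed MYC-TA highest, Hmhi EGF next, the Miz1 kd label below it and Hmhi starved lowest. Hmhi EGF was 10.9-fold higher than Hmhi starved by the brighter set and 3.36-fold by the plain set, for which Hmhi starved was below the median and background limits the fold. MYC-TA exceeded Hmhi starved by 4.18 and 2.43. The Miz1 kd label differed from Hmhi EGF by -2.19 and -0.90, so the plain set did not reach 2-fold there. In MYC-TA minus Hmhi EGF the sets were close, at 0.74 and 0.68.

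The other lecticans, Acan, Vcan and Ncan, were below the median on all 4 arrays, and no pattern is read from them. Of 13 measured genes of the lectican list 5 passed the filter with EGF, and 1 was at least 2-fold higher. That was Cd44, a hyaluronan receptor, which read 12.70 in Hmhi EGF against 10.74 in Hmhi starved. Cd44 read 12.55 in the Miz1 kd label, -0.15 from Hmhi EGF, whereas Bcan was lower there. Tnc, the matrix protein tenascin-C, read 6.76 in MYC-TA against 5.51 in Hmhi EGF. Hmhi EGF and the other arrays were below the median for Tnc, which limits that difference.

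Scn7a encodes an atypical sodium channel that senses extracellular sodium and is found in glia, including Schwann cells. Its brightest set read 7.70 in MYC-TA, 6.94 in the Miz1 kd label, 6.95 in Hmhi EGF and 10.92 in Hmhi starved. The second set read 6.83, 6.22, 6.27 and 10.66, and the third 5.54, 5.33, 5.31 and 6.77. Hmhi starved was thus above every EGF array in all 3 sets. It is 1 array, and the sets belong to 1 gene and are no replicates. Hmhi EGF minus Hmhi starved was -3.97, -4.39 and -1.46, and the brightest set was 15.6-fold lower with EGF. The EGF arrays were close to the median or below it, so the fold depends on background. The Miz1 kd label differed from Hmhi EGF by -0.010, below the technical SD, while MYC-TA was higher than Hmhi EGF by 0.74, short of 2-fold. Relative to Hmhi starved the 3 EGF arrays therefore kept the low level, at -3.22 in MYC-TA, -3.98 in the Miz1 kd label and -3.97 in Hmhi EGF. These differences share the Hmhi starved array.

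Scn1a and Scn8a, pore subunits of excitable cells, were the 2 of 11 measured sodium channel list genes past the filter, and both went the opposite way to Scn7a with EGF. No direction is read for the others. Scn1a read 8.64 in MYC-TA, 9.74 in the Miz1 kd label, 9.65 in Hmhi EGF and 7.83 in Hmhi starved. For Scn8a the values were 8.88, 10.06, 10.00 and 8.98. Both were lower in MYC-TA than in Hmhi EGF by more than 2-fold, with differences of -1.01 and -1.12. Both also exceeded Hmhi starved at least 2-fold in Hmhi EGF, Scn8a only just, at 1.02. With a gene's sets averaged, 1 list gene in place of 2 was at least 2-fold higher with EGF. On the RefSeq assembly GRCm38.p6, Scn1a, Scn9a and Scn7a lie next to each other on chromosome 2. Scn9a was below the median on all arrays, between 4.53 and 4.77.

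Fabp7 encodes the brain lipid-binding protein of radial glia and Schwann cell precursors. Its 1 set read 8.90 in MYC-TA, 8.29 in the Miz1 kd label, 9.44 in Hmhi EGF and 7.84 in Hmhi starved. Hmhi EGF was highest and Hmhi starved lowest, and all arrays were above the median. The difference was 1.61 for Hmhi EGF minus Hmhi starved, or 3.05-fold, and -1.15 for the Miz1 kd label minus Hmhi EGF. MYC-TA was -0.55 from Hmhi EGF. The order of the arrays was that of Gfra1. After each gene's mean was subtracted, the profiles of Fabp7 and Gfra1 were 0.39 apart over the 4 arrays (Euclidean distance, log2), the smallest distance of any of the 36 pairs of members. With 4 arrays this is a description only. The related fatty acid binding genes differed from it: Pmp2, the peripheral myelin protein that carries fatty acids, read 10.51 in MYC-TA, 9.20 in the Miz1 kd label, 9.31 in Hmhi EGF and 12.37 in Hmhi starved. Fabp5 read 13.31, 11.95, 13.06 and 13.56, and like Fabp7 it was at least 2-fold lower in the Miz1 kd label than in Hmhi EGF, with a difference of -1.11.

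Mbp encodes myelin basic protein, which compacts the myelin sheath, and its locus also gives transcripts in cells that make no myelin. All 8 sets were above the median on every array, and all 8 read lower in Hmhi EGF than in Hmhi starved. The set with the highest mean read 13.95 in MYC-TA, 14.40 in the Miz1 kd label, 14.00 in Hmhi EGF and 14.70 in Hmhi starved. It was near the highest value on the arrays, 15.12, and its difference of -0.70 for Hmhi EGF minus Hmhi starved was the smallest of the 8. The other 7 sets had differences between -1.05 and -2.67, each past 2-fold, and the mean of the 8 was -1.45 ± 0.59 (SD, n = 8 sets). Among the 7, sets at 14.67, 14.63 and 14.59 in Hmhi starved, close to 14.70, had differences of -1.55, -1.69 and -1.52. Whether brightness limits the difference was not tested. The set with the largest difference read 10.33 in MYC-TA, 11.41 in the Miz1 kd label, 10.30 in Hmhi EGF and 12.97 in Hmhi starved. Mbp is thus not counted among the 2-fold genes by its brightest set, but would be by the mean of its sets. The sets share probes or transcripts of 1 gene and are no replicates.

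**Figure D2:**
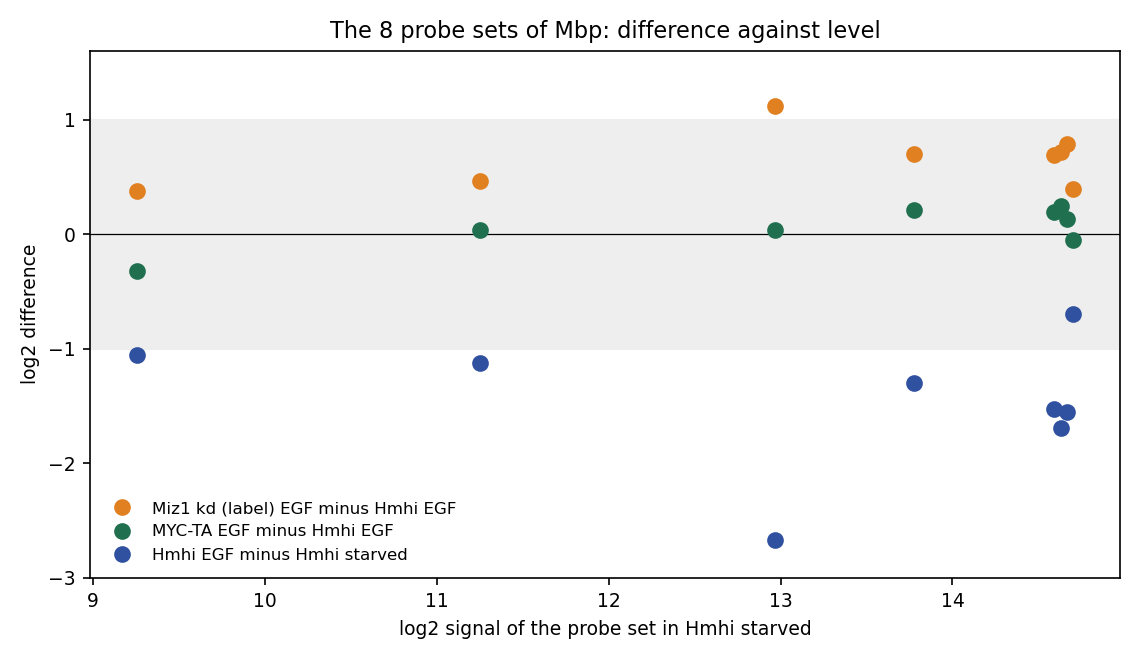
Log2 difference (vertical axis) of each of the 8 Mbp probe sets against its log2 signal in Hmhi starved (horizontal axis), for Miz1 kd label EGF minus Hmhi EGF (orange), MYC-TA EGF minus Hmhi EGF (green) and Hmhi EGF minus Hmhi starved (blue). The grey band is less than 2-fold; the blue points lie between -0.70 and -2.67, and the green points between -0.32 and 0.24.

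In the Miz1 kd label all 8 Mbp sets were higher than in Hmhi EGF, by 0.38 to 1.12, with a mean of 0.66 ± 0.24 (SD, n = 8 sets). In MYC-TA 6 sets were higher and 2 lower than in Hmhi EGF, with a mean of 0.06 ± 0.18. The order of the arrays by the mean of the sets was therefore Hmhi starved highest, the Miz1 kd label next, and MYC-TA and Hmhi EGF lowest, close together. Other myelin genes varied. Pmp22, a peripheral myelin protein, read 10.55 in MYC-TA, 11.07 in the Miz1 kd label, 10.40 in Hmhi EGF and 12.55 in Hmhi starved. Mal, a myelin and lymphocyte proteolipid, read 8.83, 8.64, 7.82 and 10.66, and Mag, the myelin-associated glycoprotein, 10.62, 11.56, 11.55 and 12.02. Of the 26 Schwann cell and myelin list genes past the filter with EGF, 4 passed 2-fold above Hmhi starved and 6 below it, and the median was 0.09. Egr2, a transcription factor that drives myelination, read 6.52 in Hmhi EGF against 9.78 in Hmhi starved, and Pou3f1, which acts before it, read 9.56 against 7.22. Ncam1, an adhesion molecule, read 12.92 in Hmhi EGF against 9.26 in Hmhi starved. The list therefore had members far apart in both directions.

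Nes encodes nestin, an intermediate filament protein of neural and crest progenitors. The brightest set read 10.37 in MYC-TA, 10.72 in the Miz1 kd label, 10.79 in Hmhi EGF and 9.49 in Hmhi starved. The second set read 9.11, 9.43, 9.41 and 8.60, and the third 6.91, 6.94, 7.45 and 6.57. Every EGF array was above Hmhi starved in all 3 sets. Hmhi EGF minus Hmhi starved averaged 1.0 ± 0.27 (SD, n = 3 sets), and 1 of the 3 sets reached 2-fold. MYC-TA was below Hmhi EGF in all 3 sets, at -0.42 ± 0.12, and the Miz1 kd label was within 0.08 of Hmhi EGF in the 2 brighter sets. Vim, the filament gene vimentin, went the other way, at 13.44 in Hmhi EGF against 14.40 in Hmhi starved, which was short of 2-fold. Synm, whose product partners with vimentin, read 6.03 in Hmhi EGF against 8.02 in Hmhi starved.

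Sox2 encodes a transcription factor of pluripotent cells, neural progenitors and immature Schwann cells. Its 1 set read 10.05 in MYC-TA, 10.25 in the Miz1 kd label, 9.88 in Hmhi EGF and 11.06 in Hmhi starved. The 3 EGF arrays lay within 0.37 of each other and below Hmhi starved. Hmhi EGF minus Hmhi starved was -1.18, a 2.27-fold lower signal, and MYC-TA minus Hmhi starved was -1.01. The other SoxB1 genes, Sox1 and Sox3, were below the median on all arrays, as were Pou5f1, Nanog and Lin28a of the pluripotency network. Klf4, another stem cell factor, was above the median on all 4. It read 9.12 in MYC-TA, 7.90 in the Miz1 kd label, 8.54 in Hmhi EGF and 8.33 in Hmhi starved.

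Foxd3 encodes a forkhead factor of crest cells, which in chick embryos holds back the melanocyte fate. Its 1 set read 8.40 in MYC-TA, 9.34 in the Miz1 kd label, 8.86 in Hmhi EGF and 9.25 in Hmhi starved. No difference reached 2-fold. The widest was -0.95 for MYC-TA minus the Miz1 kd label, 1.93-fold lower in MYC-TA, past the technical SD of 0.41. The differences from Hmhi EGF were -0.47 in MYC-TA and 0.48 in the Miz1 kd label, in opposite directions. Of the 14 crest transcription factors past the filter with EGF, 1 passed 2-fold above Hmhi starved and 2 below it. Sox10, the central crest and glial factor, stayed between 12.96 and 13.36, and Pax3 between 10.48 and 10.86. Id3, an inhibitor of helix-loop-helix factors, read 7.58 in Hmhi EGF against 10.71 in Hmhi starved. Snai2 read 9.91 against 11.43, and Foxc1 read 8.97 against 7.24.

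**Figure D3:**
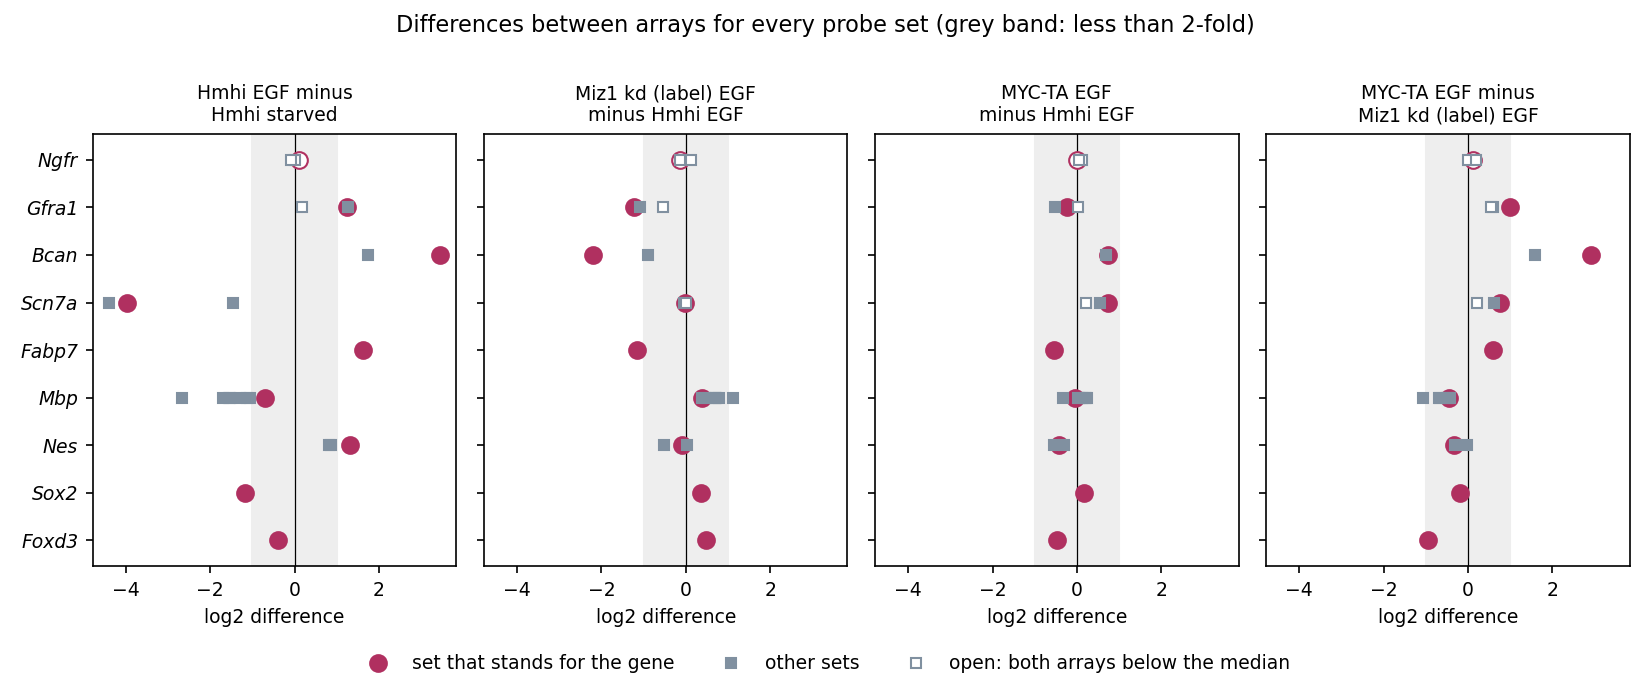
Log2 difference (horizontal axis) of every probe set of the 9 genes (rows) in 4 comparisons, the first named array minus the second; red circles are the sets that stand for the gene, open symbols have both arrays below the median and the grey band is less than 2-fold. With EGF 4 genes lie to the right of the band and Scn7a and Sox2 to the left, while all points of MYC-TA minus Hmhi EGF lie within it.

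The Miz1 kd label and Hmhi EGF arrays differ in the labelled construct, both with EGF. With 1 array each, a difference cannot be assigned to the construct. Of the 8 members past the filter 3 were at least 2-fold lower in the Miz1 kd label, namely Bcan, Gfra1 and Fabp7, and 0 were at least 2-fold higher. Over all 11394 genes 2.50% were at least 2-fold lower and 0.290% higher. The members' median was -0.044, against 0.018 over all genes. All 3 were among the 4 genes that Hmhi EGF had at least 2-fold above Hmhi starved. The same overlap was not counted over all genes, so nothing is read from it. The Hmhi EGF array enters the 2 comparisons with opposite signs, and a deviation of that array would enter both. The Miz1 kd label minus Hmhi starved, which leaves out the Hmhi EGF array, was 0.02 for Gfra1, 0.46 for Fabp7 and 1.25 for Bcan. These 3 genes were still picked by their Hmhi EGF readings. Nes, the 4th gene higher with EGF, was -0.078 from Hmhi EGF in the Miz1 kd label and 1.23 above Hmhi starved. Dct, a melanin enzyme gene, likewise read 9.19 in the Miz1 kd label against 11.26 in Hmhi EGF and was the 1 melanocyte list gene of 10 at least 2-fold lower.

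The MYC-TA and Hmhi EGF arrays differ in the MYC-TA label, both with EGF. Here too, 1 array each does not allow a difference to be assigned to MYC-TA. None of the 8 members past the filter was 2-fold apart, nor was any of their 20 sets past the filter, against 3.70% of all sets. Sets of 1 gene are not independent here either. Among all 11534 genes 1.30% were at least 2-fold higher and 1.65% lower, so a count of 0 among 8 genes is near that background. The largest differences were 0.74 for both Bcan and Scn7a, past the technical SD of 0.25, followed by -0.55 for Fabp7, -0.47 for Foxd3 and -0.42 for Nes. The members' median was -0.14, against 0.045 over all genes. Among the related lists the genes furthest apart were melanocyte genes: Oca2, a melanosome transporter gene, read 6.21 in MYC-TA against 9.36 in Hmhi EGF, and Slc45a2, another, read 6.97 against 9.67. They were the 2 of 10 melanocyte list genes at least 2-fold lower, and 0 were higher. Of 27 Schwann cell and myelin list genes, 2 were at least 2-fold higher, Egr2 at 1.12 and Mal at 1.01, and 2 were lower, Ncam1 at -1.73 and Matn2 at -1.27. Pmp2, at 10.51 in MYC-TA against 9.31 in Hmhi EGF, was also higher, and Notch1 at -1.55 and Sorcs2 at -1.27 were lower.

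Of the members, Bcan was furthest apart between MYC-TA and the Miz1 kd label, both with EGF. It read 11.35 in MYC-TA against 8.42 in the Miz1 kd label, which is 7.61-fold, and 2.99-fold by the plain set. Bcan and Gfra1 were the 2 members that passed 2-fold upwards in MYC-TA, and 0 passed it downwards, against 6.72% and 4.26% of 11613 genes. Gfra1 came under 2-fold with a loess correction. The members' median was 0.20, against 0.039 over all genes, but it turned to -0.20 with the level filter at the 75th percentile, so no direction is read from it. Of 27 Schwann cell and myelin list genes past the filter, 3 passed 2-fold upwards in MYC-TA and 3 downwards.

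Against Hmhi starved the MYC-TA array had 3 members at least 2-fold higher, namely Bcan, Fabp7 and Gfra1, and 2 at least 2-fold lower, Scn7a and Sox2. All genes gave 8.33% and 4.91%. The Miz1 kd label had 2 higher, Bcan and Nes, and 1 lower, Scn7a, against 7.45% and 7.42% of all genes. Bcan and Scn7a were thus past 2-fold from Hmhi starved in all 3 EGF arrays, by their brightest sets, and these comparisons share the Hmhi starved array.

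**Figure D4:**
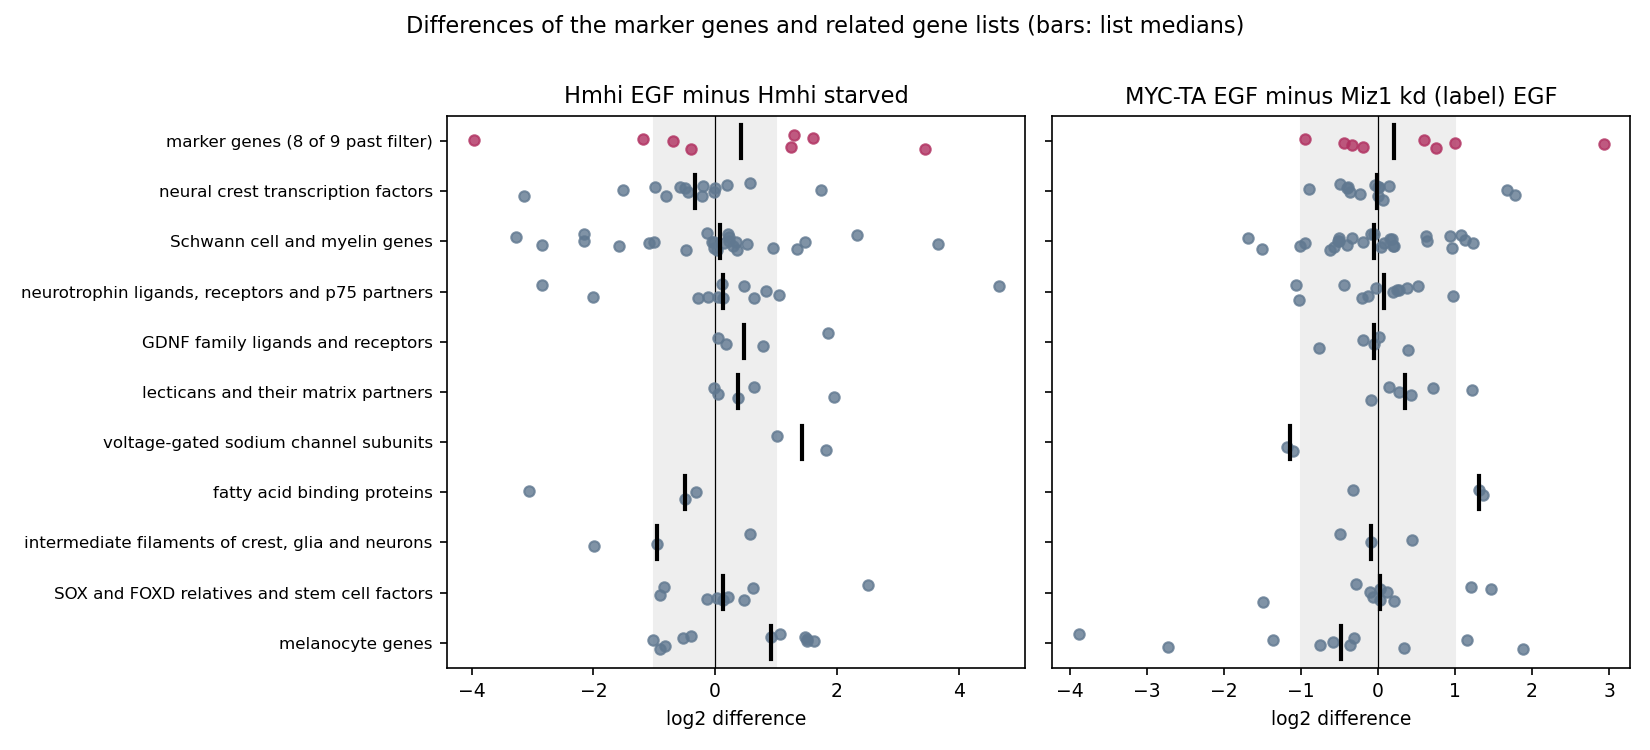
Log2 difference (horizontal axis) of each gene past the level filter in the marker list and 10 related lists (rows), for Hmhi EGF minus Hmhi starved (left) and MYC-TA EGF minus Miz1 kd label EGF (right); black bars are list medians and the grey band is less than 2-fold. The marker genes have a median of 0.43 on the left and 0.20 on the right (-0.20 under the stricter level filter), with members far to both sides on the left.

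Genes whose profiles over the 4 arrays were nearest to a member were sought for members with a range of at least 2, which were Bcan and Scn7a. Likeness was the Euclidean distance between profiles after each gene's mean was subtracted. Nearest to Bcan were Rragd, at 0.44, and Fstl1, at 0.71. Rragd, a Rag GTPase gene, read 8.95 in MYC-TA, 5.75 in the Miz1 kd label, 7.92 in Hmhi EGF and 5.01 in Hmhi starved. Nearest to Scn7a were Wt1, at 0.37, and Crygs, at 0.44. Wt1 read 7.03, 6.40, 6.40 and 9.93 in the same order. The low readings of Rragd and Wt1 were below the median.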

How the data were processed

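Total RNA of 4 melan-a cultures was labelled as biotinylated cRNA from 100 ng, per the labels' protocols. The deposited log2 values of 45101 probe sets were used as given. The log base was inferred from the range of 2.94 to 15.12, and the authors' summarization and normalization are not given in the sources used here. The sorted columns agreed within 0.004, which imposes equal distributions on the arrays and hides any change common to most genes. The platform annotation of 2016 names 1 gene for 34945 sets and several for 932, and Entrez identifiers of 34741 matched the RefSeq table and changed 0 symbols. Only sets that name 1 gene were read, so any set that names a member together with another gene was left out. The 64 control sets were left out.

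Differences were taken between arrays, genes at least 2-fold apart were counted and no test was run, since each condition has 1 array and the number of arrays limits the precision. Named genes were the members, up to 4 genes of a list with the largest difference past 2-fold, list genes given for comparison after their values were seen, and the nearest profiles of members with a range of at least 2. The members and lists were chosen with earlier results of these data known. Alternatives concerned scaling, the level filter, the choice of probe set and the fold threshold. The steps were tested on simulated data. Python 3.11.15, pandas 2.3.3, numpy 2.4.6, statsmodels 0.14.6 and matplotlib 3.10.9 were used.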

Additional observations from a re-analysis of the deposited data

How the results depend on the processing

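No paired analysis was possible because there were no replicates, and no array could be left out. With EGF against Hmhi starved, the members at least 2-fold higher numbered 2 in place of 4 with a gene's sets averaged and with a 3-fold threshold, and 1 in place of 2 was lower at 3-fold. Their median was 0.10 with no level filter and 1.25 with only plain _at sets, which leaves Mbp out. For the Miz1 kd label against Hmhi EGF, 1 member in place of 0 was higher and the median was -0.51 with the set of largest difference, and 1 in place of 3 was lower at 3-fold. For MYC-TA against Hmhi EGF, 2 in place of 0 were higher at 1.5-fold, and the median was -0.39 with the set of largest difference. For MYC-TA against the Miz1 kd label, 1 in place of 2 was higher with loess, with the mean of all sets and at 3-fold, and 4 were at 1.5-fold. There 1 in place of 0 was lower with the set of largest difference and at 1.5-fold. For the Miz1 kd label against Hmhi starved, 1 in place of 2 was higher with the stricter filter (75th percentile), with sets averaged and with only plain sets, and 0 at 3-fold, while 2 in place of 1 were lower with the set of largest difference and at 1.5-fold. For MYC-TA against Hmhi starved, 1 in place of 3 was higher and 1 in place of 2 lower at 3-fold, 4 were lower at 1.5-fold, and the median was 0.88 in place of 0.067 with only plain sets. Medians near 0 changed sign: for MYC-TA against the Miz1 kd label -0.20 in place of 0.20 and for the Miz1 kd label against Hmhi starved -0.14 in place of 0.056, both with the stricter filter, and for MYC-TA against Hmhi starved -0.14 in place of 0.067 with sets averaged. The cause was not tested, beyond what the changed sets and thresholds give by construction. Of 168 counts and medians of members, 142 moved by less than 1.5 times or less than the technical SD, as did 396 of 426 single differences, and no called difference changed sign. Of the counts of related lists, 893 of 960 moved by no more than 1.5 times. All genes 2-fold apart numbered 161 in place of 318 for the Miz1 kd label with the filter at the 75th percentile. Differences of readings below the median are limited by background.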

Other observations

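Some members have neighbours on the genome that were measured on the same arrays, by gene order on the RefSeq assembly GRCm38.p6. Nes and Bcan are adjacent protein-coding genes on chromosome 3, and in Hmhi EGF both exceeded Hmhi starved, by 1.30 and 3.44. In the Miz1 kd label they parted, with differences from Hmhi EGF of -0.078 for Nes and -2.19 for Bcan. Hapln2, which encodes a hyaluronan link protein and lies on the other side of Bcan, read 6.71 in MYC-TA, 6.28 in the Miz1 kd label, 6.76 in Hmhi EGF and 6.39 in Hmhi starved, close to the median.

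Atrnl1, the neighbour of Gfra1 on chromosome 19, read 11.26 in MYC-TA, 9.59 in the Miz1 kd label, 10.82 in Hmhi EGF and 10.11 in Hmhi starved. Its difference from Hmhi EGF in the Miz1 kd label, -1.23, was the same as that of Gfra1 to 2 decimals. Smpdl3a, next to Fabp7 on chromosome 10, exceeded Hmhi starved by 1.30 in Hmhi EGF and had a difference of -0.53 in the Miz1 kd label from Hmhi EGF. Pkib, on the other side of Fabp7, was 0.19 from Hmhi EGF in the Miz1 kd label, the opposite way, and exceeded Hmhi starved by 0.66 in Hmhi EGF. These neighbours were looked at after the members' values had been seen, and no comparison with other neighbouring genes was made.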
